A study of Mus musculus with 7 samples.

Results

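Polycomb repressive complex 1 (PRC1) was followed through 9 of its subunit genes, Ring1, Rnf2, Bmi1, Pcgf2, Cbx2, Cbx6, Cbx7, Cbx8 and Phc2, taken from the deposited tables by gene symbol. All 9 were found among 22447 genes with a symbol, and all 9 were among the 14057 genes tested, which reached at least 1 FPKM (fragments per kilobase of transcript, scaled to library depth) in at least 2 libraries. RNA sequencing covered 7 mouse lung libraries in 3 groups, with 3 lung tumors labelled EZH2 overexpression (OE tumors), 2 lungs labelled normal with the same genotype (OE normal lung) and 2 lungs labelled normal and wild type (WT lung). The labels name no strain, age, promoter, treatment or driver of the EZH2 transgene. They give lung tissue as the source but also speak of minced nodules kept in culture, which leaves unstated whether tumor RNA was taken from fresh or cultured material.

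PRC1 is the Polycomb complex that places ubiquitin on histone H2A, and EZH2 belongs to its partner complex PRC2, which methylates histone H3. Every PRC1 holds one RING-type ubiquitin ligase (RING1 or RNF2) and one PCGF protein that activates it. Canonical PRC1 adds a CBX protein, whose chromodomain binds the mark made by PRC2, and a PHC protein, which polymerizes and compacts chromatin. Variant PRC1 carries RYBP or YAF2 in place of CBX and can act without PRC2.

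All 7 libraries held the 8 alveolar type 2 cell genes of a fixed list, and the tumors differed from both normal groups in genes of many cell types. The lung genes Sftpc and Scgb1a1 were kept out of the marker lists, since they were listed at 0 in some libraries and very high in others. All 12 endothelial markers and all 8 ciliated cell markers of fixed lists were lower in tumors, with summed levels of 190.1 to 219 FPKM for endothelium in tumors against 1629 to 1837 FPKM in OE normal lung and 1939 to 2282 FPKM in WT lung. Of 8 alveolar type 2 markers 7 were higher, summing to 7926 to 13018 FPKM in tumors and 2072 to 3350 FPKM in the normal lungs. All 8 T and NK cell markers and all 6 B cell markers were lower in tumors than in OE normal lung. Against WT lung 5 and 4 of them were called lower. B cell markers summed to 8.33 to 19.1 FPKM in tumors, 139 to 515 FPKM in OE normal lung and 38.7 to 77.0 FPKM in WT lung. T and NK cell markers summed to 7.86 to 17.3, 75.1 to 142 and 35.2 to 51.6 FPKM in the same order. None of these markers was called between the normal groups. Tumor 1 stood apart from tumors 2 and 3 (Pearson r = 0.897 and 0.894 across genes, which are not independent replicates, against 0.970 between tumors 2 and 3). Its fibroblast and smooth muscle markers summed to 696 FPKM, against 105 and 141 FPKM in tumors 2 and 3. In the normal lungs they summed to 635 to 976 FPKM. Acta2 (313 FPKM) and Dcn (164 FPKM) were the largest of these markers in tumor 1. Myh11 alone of the list was lowest in tumor 1 (1.92 FPKM, against 2.15 and 3.25 FPKM in tumors 2 and 3). Macrophage markers summed to 2552 FPKM in tumor 1, mostly Lyz2 (2400 FPKM), and to 638 and 807 FPKM in tumors 2 and 3. Heart muscle genes summed to 2.62 to 7.42 FPKM in tumors and to 557 to 1298 FPKM in the normal lungs, and the markers Dnah5, Ccdc113 and Myl7 were listed at 0 in tumor 2. Of 10 cell cycle genes none was called against OE normal lung and 3 were higher than in WT lung, where 38.1% and 38.2% of all genes tested were called. Xist and Eif2s3y marked tumor 1, OE normal 1 and both WT lungs as male and the other 3 libraries as female. The sources used here give no read totals. From the spacing of low values, tumor 1 was the shallowest library and the deepest, OE normal 2, was 1.87 times as deep.

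The promoters of Pcgf2, its paralog Bmi1 and Cbx7 are shown because Pcgf2 and Cbx7 carried the calls that held in most alternatives and Bmi1 is the paralog that Pcgf2 is set against. Each is the 250 bases before the RefSeq start on GRCm38.p6, the build of the RefSeq table and not the mm9 build of the deposited values, at chr11:97699649-97699898 on the minus strand for Pcgf2, chr2:18676768-18677017 on the plus strand for Bmi1 and chr15:79932647-79932896 on the minus strand for Cbx7. Capitals mark matches, on either strand, to 3 promoter motifs. These are the GC box, spelled GGGCGG and bound by SP1-type factors, the box named for its own letters CCAAT and bound by NF-Y, and the E box, spelled CACGTG and bound by factors such as MYC with MAX or USF.
Pcgf2: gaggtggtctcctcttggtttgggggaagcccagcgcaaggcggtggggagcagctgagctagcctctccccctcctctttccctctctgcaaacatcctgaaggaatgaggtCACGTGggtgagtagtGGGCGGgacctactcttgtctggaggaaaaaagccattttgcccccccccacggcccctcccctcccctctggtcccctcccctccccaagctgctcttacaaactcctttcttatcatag
Bmi1: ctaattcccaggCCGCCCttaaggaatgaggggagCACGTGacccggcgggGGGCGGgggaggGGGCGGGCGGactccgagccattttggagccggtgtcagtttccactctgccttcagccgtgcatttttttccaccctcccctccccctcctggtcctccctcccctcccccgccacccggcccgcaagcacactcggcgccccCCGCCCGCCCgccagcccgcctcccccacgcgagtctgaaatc
Cbx7: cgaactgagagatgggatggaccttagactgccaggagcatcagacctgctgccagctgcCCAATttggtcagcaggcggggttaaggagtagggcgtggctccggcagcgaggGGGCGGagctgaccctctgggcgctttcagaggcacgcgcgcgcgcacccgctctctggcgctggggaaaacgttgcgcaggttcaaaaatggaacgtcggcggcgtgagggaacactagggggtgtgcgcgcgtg
The Cbx6 window was searched but is not printed, since all 250 of its bases lie in an annotated untranslated region (GENCODE). Of the Cbx7 window 6 bases lie in such a region and 122 in an exon of some transcript, and of the Pcgf2 and Bmi1 windows none. An E box stood in the Pcgf2, Bmi1 and Cbx6 windows, against 6.02% of all 32851 promoter windows of this length, and none was found in the Cbx7 window. Of 10 member windows 5 held an E box, also those of Cbx8 and 1 of Phc2, genes not called below. All windows were counted without matching for GC content. A GC box stood in the Pcgf2, Bmi1, Cbx6 and Cbx7 windows (32.7% of all windows) and the NF-Y box in the Cbx7 window alone among these 4 (33.8% of all windows). No match to the E2F sites spelled TTTCGCGC and, in the other version, TTTGGCGC, to the ETS site spelled CCGGAAG or to the TATA box spelled TATAAA was found on either strand of the 4 windows. The Pcgf2 window held 5 CpG dinucleotides, below the median of 6 over all windows, while Bmi1, Cbx6 and Cbx7 held 21, 20 and 23. RefSeq windows were matched for 8 of the 9 members, and matches are descriptions of these letters only. No motif overlapped another kind in the printed windows, while some of the 6 GC boxes of Bmi1 overlapped each other.

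Of the 9 members 3 changed in tumors, the PCGF gene Pcgf2 and the CBX genes Cbx6 and Cbx7. Pcgf2 rose 2.44-fold over OE normal lung by group means, Cbx6 rose 1.54-fold and Cbx7 fell to 0.385 of the OE normal mean. Ring1, Rnf2, Bmi1, Cbx2, Cbx8 and Phc2 did not pass the test. Differences are given on the log2(FPKM + 1) scale, which understates changes of low genes, with the standard error (SE) from a limma fit over all 7 libraries, and a gene was called at a Benjamini-Hochberg adjusted p under 0.05 over all genes tested. Of the 9 members 2 were called higher and 1 lower in tumors than in OE normal lung, where 38.1% of all genes tested were called, 13.1% higher and 24.9% lower. The same 3 were called in the same directions against WT lung, where 38.2% of all genes were called, 15.0% higher and 23.2% lower. Tumors did not overlap OE normal lung for 5 members that were higher (25.0% of all genes) and 1 that was lower (35.9%), together 60.9% of all genes, and did not overlap WT lung for 5 higher (28.9%) and 1 lower (35.0%), together 63.9%. Both comparisons share the tumor libraries. Of the members 33.3% were thus called, a share near that of all genes. No label says whether the libraries of a group are separate animals. By the sex markers above, OE normal 1 was male and OE normal 2 female, so these came from different animals. Tumor 1 was male and the other tumors female, so it came from a different animal than they did. Among libraries of one group and the same sex (the female tumors, and WT lung) the markers cannot decide this. The p-values therefore reflect library-to-library spread, which may in part be technical. In bulk RNA, fewer cells of a type and less RNA per cell cannot be told apart, and the part of the cell type markers above in these changes was not tested.

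**Figure D1:**
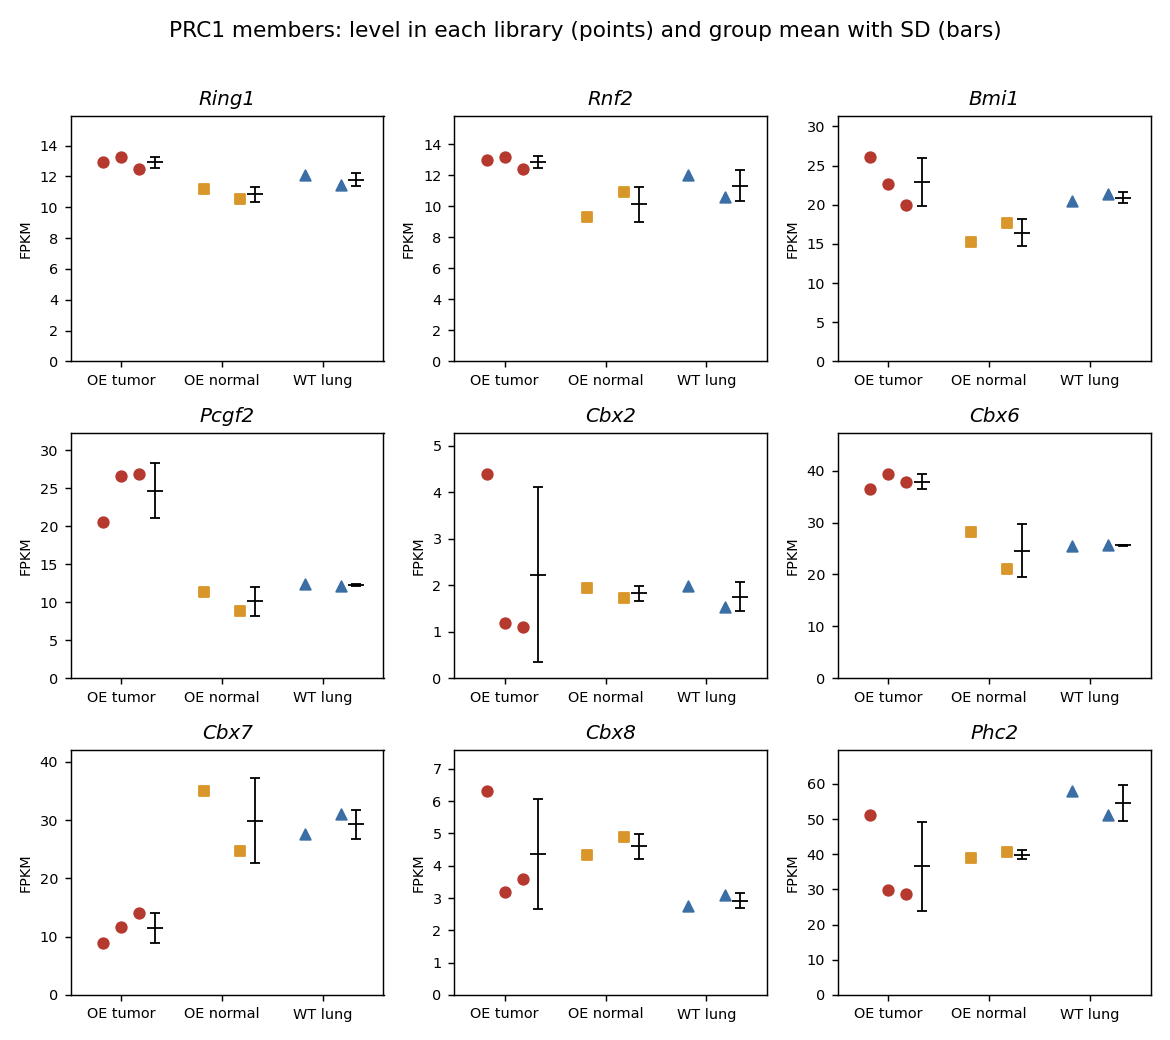
Level of each PRC1 member in FPKM (vertical axes, from 0) in the 3 OE tumors (circles), 2 OE normal lungs (squares) and 2 WT lungs (triangles), with the group mean and SD as black bars. Pcgf2 and Cbx6 lie higher and Cbx7 lower in every tumor than in every normal lung, and tumor 1 stands apart from the other tumors for Cbx2, Cbx8 and Phc2.

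Neither ubiquitin ligase was called in any comparison. Ring1 stood at 12.9, 13.3 and 12.5 FPKM in tumors 1, 2 and 3, at 11.2 and 10.5 FPKM in OE normal lungs 1 and 2 and at 12.1 and 11.5 FPKM in WT lungs 1 and 2. The tumors lay above all 4 normal lungs, and the means differed by 1.19-fold from OE normal lung (0.23 on the log2 scale, SE 0.11, limma adjusted p = 0.136). Rnf2, its paralog and the main ligase in many cell types, stood at 13.0, 13.2 and 12.4 FPKM in the tumors, 9.32 and 10.9 FPKM in OE normal lung and 12.03 and 10.6 FPKM in WT lung. Again the tumors lay above the normal lungs without a call (0.32, SE 0.12, limma adjusted p = 0.0886 against OE normal lung, and 0.17, SE 0.12, limma adjusted p = 0.315 against WT lung). Ring1 made up between 49.0% and 54.6% of the summed Ring1 and Rnf2 FPKM in each of the 7 libraries, so the paralogs were at nearly equal level throughout.

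Among the PCGF proteins, which set the type of PRC1, the paralogs of canonical PRC1 differed in behavior. Pcgf2, also known as Mel18, stood at 20.5, 26.6 and 26.9 FPKM in the tumors, 11.4 and 8.77 FPKM in OE normal lung and 12.4 and 12.1 FPKM in WT lung. Every tumor was above every normal lung, with tumor 1 the lowest of the tumors. The log2 difference was 1.21 (SE 0.17, limma adjusted p = 0.00303) against OE normal lung and 0.94 (SE 0.17, limma adjusted p = 0.00776) against WT lung. The first call held in all 18 alternative fits (log2 differences of 1.03 to 1.38). Against WT lung it was lost when either WT library was left out (limma adjusted p = 0.0557 without WT 1 and 0.0637 without WT 2). Bmi1, the PCGF protein known for repression of Cdkn2a, stood at 26.1, 22.7 and 20.0 FPKM in the tumors, 15.2 and 17.6 FPKM in OE normal lung and 20.5 and 21.4 FPKM in WT lung. The tumors were above OE normal lung and overlapped WT lung, and the log2 differences were 0.45 (SE 0.15, limma adjusted p = 0.0532) and 0.12 (SE 0.15, limma adjusted p = 0.554). Bmi1 passed against OE normal lung with median-of-ratios scaling (log2 difference 0.62, limma adjusted p = 0.00920), with quantile normalization (0.53, limma adjusted p = 0.0264) and without tumor 1 (0.36, limma adjusted p = 0.0271).

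Levels per length can be set side by side between paralogs of one library. The ratio of Pcgf2 to Bmi1 FPKM was 0.785, 1.17 and 1.35 in tumors 1, 2 and 3, 0.747 and 0.498 in OE normal lung and 0.604 and 0.568 in WT lung. Bmi1 was the higher of the pair in all 4 normal lungs and in tumor 1, and Pcgf2 in tumors 2 and 3. This ratio does not change with any factor common to a library. Bmi1 is the direct neighbor of Commd3 in the RefSeq gene order, and Commd3 rose in tumors (log2 difference 0.66, limma adjusted p = 0.0219 against OE normal lung). The strand setting of the counting is not given, and whether reads were shared between these genes was not tested.

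**Figure D2:**
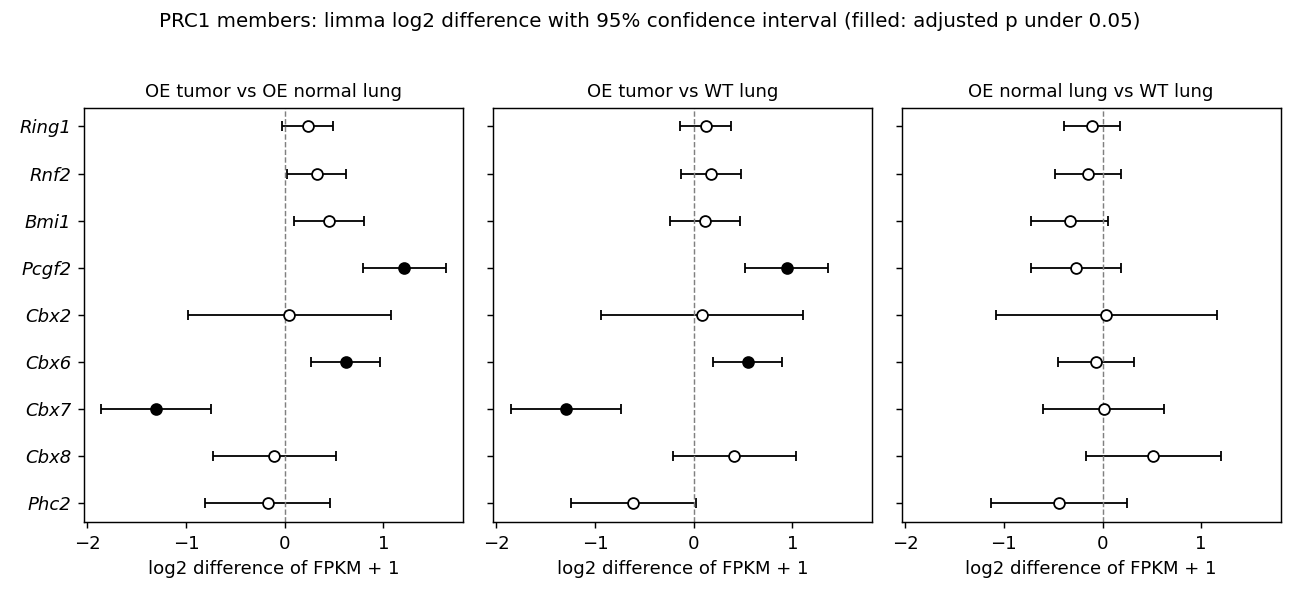
Log2 difference of FPKM + 1 (horizontal axes) for each PRC1 member in the 3 comparisons, with the 95% confidence interval from limma, filled where the adjusted p is under 0.05. Pcgf2 and Cbx6 lie to the right and Cbx7 to the left of 0 in both tumor comparisons, and no member is filled for OE normal against WT lung.

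The CBX proteins, which bring canonical PRC1 to its sites, showed the largest fall and the second called rise. Cbx7, the chromobox protein that dominates in many resting and differentiated cells, stood at 8.86, 11.7 and 14.0 FPKM in the tumors, 35.1 and 24.7 FPKM in OE normal lung and 27.5 and 31.0 FPKM in WT lung. Every tumor lay below every normal lung, and tumor 1 was the lowest. The log2 difference was -1.30 (SE 0.23, limma adjusted p = 0.00643) against OE normal lung and -1.29 (SE 0.23, limma adjusted p = 0.00687) against WT lung. Against OE normal lung the call held in all 18 alternatives (log2 differences of -1.57 to -1.06), and against WT lung it was lost only without WT 2 (limma adjusted p = 0.0618).

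Cbx6, a less studied chromobox paralog, moved the other way. It stood at 36.4, 39.4 and 37.8 FPKM in the tumors, 28.2 and 21.0 FPKM in OE normal lung and 25.5 and 25.7 FPKM in WT lung, and the tumors lay above all normal lungs. The log2 differences were 0.62 (SE 0.14, limma adjusted p = 0.0185) and 0.55 (SE 0.14, limma adjusted p = 0.0281). These calls were less stable than those of Pcgf2 and Cbx7. Against OE normal lung the call was lost on rescaling to TPM (log2 difference 0.40, limma adjusted p = 0.0944) and without tumor 2, tumor 3 or OE normal 2 (limma adjusted p = 0.0646, 0.0581 and 0.0961). Against WT lung it was lost on both TPM rescalings (limma adjusted p = 0.0681 and 0.0743) and without tumor 2, tumor 3, WT 1 or WT 2 (limma adjusted p = 0.0886, 0.0796, 0.142 and 0.144). Npcd, which RefSeq also names Cbx6-Nptxr and which shares sequence with Cbx6, was listed at 0.672 to 2.44 FPKM over the 7 libraries, and how reads were divided between them was not tested.

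Cbx6 and Cbx7 are neighbors on chromosome 15, with 2 genes between them in RefSeq, D730005E14Rik and Apobec3, and were called in opposite directions in both tumor comparisons. Their ratio, Cbx6 over Cbx7, was 4.11, 3.36 and 2.70 in tumors 1, 2 and 3, 0.804 and 0.849 in OE normal lung and 0.926 and 0.827 in WT lung. The ratio was above 1 in all 3 tumors and below 1 in all 4 normal lungs. Of the 2 genes between them, Apobec3, a cytidine deaminase, fell in tumors against OE normal lung (log2 difference -0.70, limma adjusted p = 0.0482) and did not pass against WT lung (0.18, limma adjusted p = 0.540). D730005E14Rik passed neither test.

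Cbx2 and Cbx8 were the lowest members in every group and differed between tumor 1 and the other tumors. Cbx8, a chromobox protein linked to proliferating cells, stood at 6.33, 3.19 and 3.59 FPKM in the tumors, 4.32 and 4.88 FPKM in OE normal lung and 2.75 and 3.08 FPKM in WT lung. The tumors lay on both sides of OE normal lung and above WT lung, with log2 differences of -0.10 (SE 0.26) and 0.41 (SE 0.26). Neither was called, and against WT lung Cbx8 passed with quantile normalization alone among 17 alternatives (0.73, limma adjusted p = 0.0237). Cbx2, known for its role in body axis and gonad development, stood at 4.40, 1.196 and 1.09 FPKM in the tumors, 1.94 and 1.72 FPKM in OE normal lung and 1.98 and 1.53 FPKM in WT lung. Tumor 1 was the highest library and tumors 2 and 3 were the lowest, and the log2 difference from OE normal lung was 0.05 (SE 0.42) with all tumors and -0.40 (limma adjusted p = 0.0367) without tumor 1. Cbx2 and Cbx8 are direct neighbors on chromosome 11. Cbx8 was above Cbx2 by group means in all 3 groups.

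Phc2, the PHC gene with the highest level in all 7 libraries and the highest member in both normal groups, stood at 51.2, 29.7 and 28.7 FPKM in the tumors, 38.9 and 40.8 FPKM in OE normal lung and 58.1 and 51.0 FPKM in WT lung. Tumors 2 and 3 were below all normal lungs while tumor 1 was within their range. The log2 differences were -0.17 (SE 0.26, limma adjusted p = 0.626) against OE normal lung and -0.61 (SE 0.26, limma adjusted p = 0.110) against WT lung. Without tumor 1 both passed (-0.44 and -0.88, limma adjusted p = 0.00665 and 5.49e-04).

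The members' counts depended on single libraries. Without tumor 1 all 9 members were called against OE normal lung, 5 of them higher (Ring1, Rnf2, Bmi1, Pcgf2 and Cbx6) and 4 lower (Cbx2, Cbx7, Cbx8 and Phc2), while 68.4% of all genes were called in that fit. Against WT lung 4 members were called in the fit without tumor 1, with 67.1% of all genes. With median-of-ratios scaling and with quantile normalization 6 members were called against OE normal lung, the additional 3 being Ring1, Rnf2 and Bmi1, and 40.5% and 43.1% of all genes. Against WT lung only 1 member was called without WT 1 (Cbx7) and 0 without WT 2, where 19.4% and 17.4% of all genes were called.

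The makeup of the CBX members shifted from Cbx7 toward Cbx6 in the tumors. Of the summed FPKM of the 4 CBX members, Cbx7 held 15.8%, 21.1% and 24.8% in tumors 1, 2 and 3, against 50.5% and 47.3% in OE normal lung and 47.7% and 50.6% in WT lung. Cbx6 held 65.0%, 71.0% and 66.9% in the tumors, 40.5% and 40.1% in OE normal lung and 44.1% and 41.9% in WT lung. Both shares separated the tumors from the normal lungs without overlap. Within the 6 PCGF genes, Pcgf2 held 30.6% ± 3.65 (SD, n = 3) in tumors, 17.96% ± 3.17 (SD, n = 2) in OE normal lung and 19.4% ± 0.326 (SD, n = 2) in WT lung. Bmi1 held 28.6% ± 4.62, 29.3% ± 3.21 and 33.2% ± 0.885 in the same groups. Phc2 made up between 66.7% and 77.6% of the PHC family in each library.

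**Figure D3:**
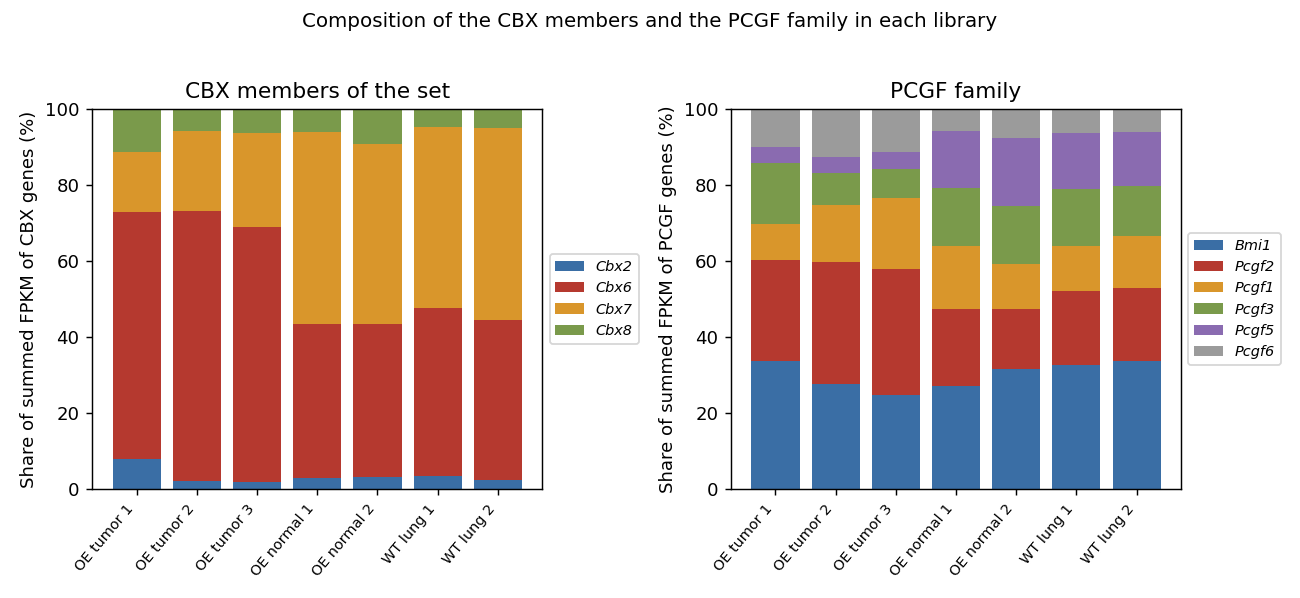
Share (percent, vertical axes from 0 to 100) of each gene in the summed FPKM of the 4 CBX members (left) and 6 PCGF genes (right) in each of the 7 libraries. In the 3 tumors the Cbx7 segment is 15.8% to 24.8%, against 47.3% to 50.6% in the 4 normal lungs, and the Cbx6, Pcgf2 and Pcgf6 segments are wider.

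By level, the order of the members differed between groups. In WT lung it ran Phc2, Cbx7, Cbx6, Bmi1, Pcgf2, Ring1, Rnf2, Cbx8 and Cbx2, from 54.6 to 1.76 FPKM by group means, and only Ring1 and Rnf2 overlapped as neighbors. In OE normal lung Pcgf2 came after Rnf2, with Cbx7 and Cbx6 overlapping and Ring1, Rnf2 and Pcgf2 overlapping in turn. In tumors it ran Cbx6, Phc2, Pcgf2, Bmi1, Ring1, Rnf2, Cbx7, Cbx8 and Cbx2, from 37.9 to 2.23 FPKM. There Cbx6 overlapped Phc2, Pcgf2 overlapped Bmi1, Ring1, Rnf2 and Cbx7 overlapped in turn, and Cbx8 overlapped Cbx2. Cbx7 moved from second place in both normal groups to the seventh place in tumors.

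OE normal and WT lung were compared to see whether EZH2 overexpression without a tumor went with a change of PRC1. None of the 9 members was called by limma and 0 reached an unadjusted p under 0.05, as against 0 genes called (0%) and 1208 (8.59%) at an unadjusted p under 0.05 among the 14057 genes tested. Ezh2 itself was not called, at 10.8 and 3.15 FPKM by group means (log2 difference 1.53, SE 0.47, limma adjusted p = 0.406). Lack of a call in this comparison therefore does not show lack of a change. Among the members Cbx8 had the largest difference, 0.52 (95% confidence interval -0.17 to 1.203), with both OE normal lungs above both WT lungs. Phc2 (-0.44), Bmi1 (-0.33), Pcgf2 (-0.27) and Ring1 (-0.11) were lower in both OE normal lungs than in both WT lungs. The groups did not overlap for 52.6% of all genes tested, 29.6% higher and 23.1% lower in OE normal lung. For Cbx7 the difference was 0.01 (95% confidence interval -0.60 to 0.62) and for Cbx6 -0.07 (-0.45 to 0.32), so shifts of the size seen in tumors for Cbx7 lay outside its interval.

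The 6 other PCGF and PHC paralogs had 1 gene higher and 1 lower in tumors against OE normal lung, and the same numbers against WT lung, where 38.1% and 38.2% of all genes were called. Pcgf5, a subunit of variant PRC1, stood at 3.40, 3.44 and 3.70 FPKM in the tumors, 8.47 and 10.0 FPKM in OE normal lung and 9.19 and 8.96 FPKM in WT lung. It fell in both comparisons (log2 differences -1.18, SE 0.13, and -1.16, SE 0.13, limma adjusted p = 0.00117 and 0.00125), and both calls held in all 18 alternatives. Pcgf6, which is part of the variant PRC1 with MGA and E2F6, stood at 7.71, 10.5 and 9.19 FPKM in the tumors, 3.33 and 4.29 FPKM in OE normal lung and 3.99 and 3.91 FPKM in WT lung. It rose in both (1.07, SE 0.17, and 1.03, SE 0.17, limma adjusted p = 0.00446 and 0.00544), and the call against WT lung was lost without WT 2 (limma adjusted p = 0.0510).

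**Figure D4:**
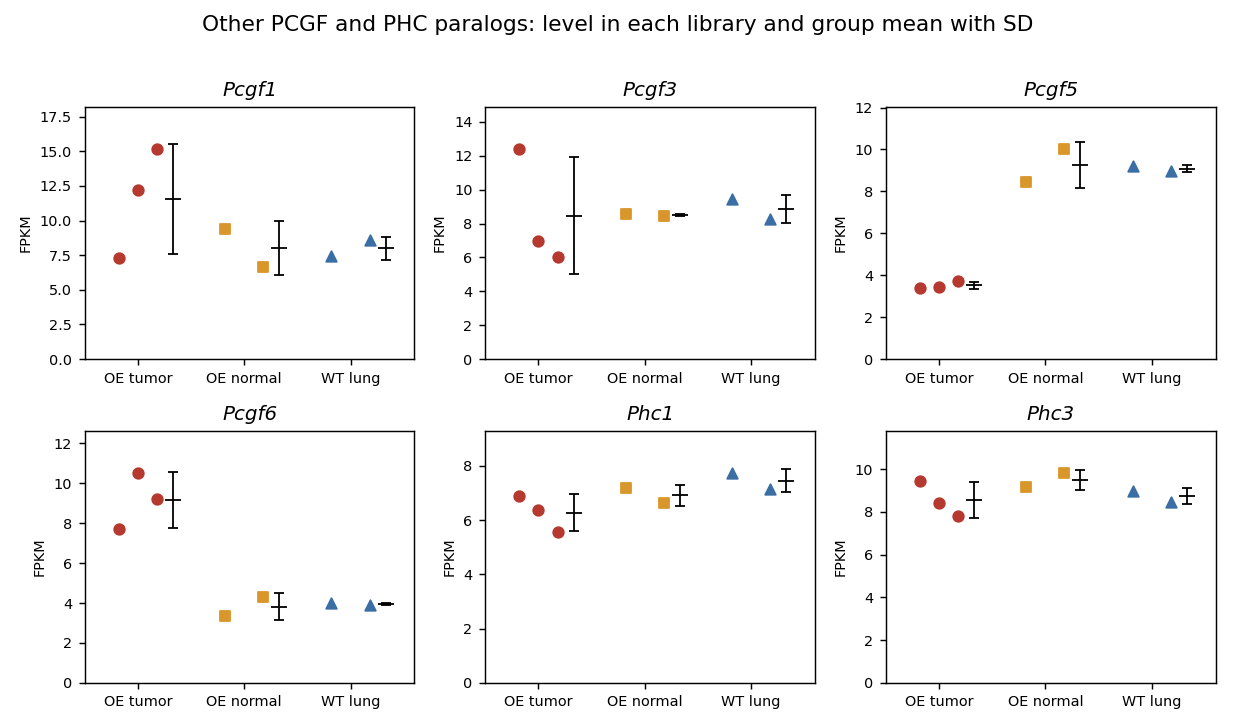
Level in FPKM (vertical axes, from 0) of the 6 other PCGF and PHC genes in the 3 OE tumors (circles), 2 OE normal lungs (squares) and 2 WT lungs (triangles), with group mean and SD as black bars. Pcgf5 is lower and Pcgf6 higher in every tumor than in every normal lung.

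Of 22 partners of variant PRC1, 4 were higher and none lower in tumors than in OE normal lung, and 2 were higher and 2 lower than in WT lung. These shares of calls were below the 38.1% and 38.2% of all genes. By direction, 13.1% and 15.0% of all genes were called higher and 24.9% and 23.2% lower. The median log2 differences of the partners were 0.02 and 0.04, beside -0.11 and -0.06 over all genes tested. Tfdp1, the dimerization partner of E2F factors, rose in both (28.4 ± 3.55 FPKM in tumors, n = 3, against 17.4 ± 1.80 and 16.1 ± 1.99 FPKM, n = 2 each, limma adjusted p = 0.0172 and 0.0105), as did the casein kinase 2 subunit Csnk2b (limma adjusted p = 0.0285 and 0.0315). Fbrsl1 (0.50, SE 0.14) and Wdr5 (0.46, SE 0.11) rose against OE normal lung. Yaf2, which replaces CBX in variant PRC1, fell against WT lung (-0.64, SE 0.19, limma adjusted p = 0.0431), as did the MYC partner Max (-0.38, SE 0.11, limma adjusted p = 0.0388). Several of these calls were near the threshold, and Csnk2b, Yaf2 and Max each lost theirs in 10 or more of 18 alternatives (10 for Yaf2 and Max, and 10 and 11 for Csnk2b). Against OE normal lung Fbrsl1, Wdr5 and Tfdp1 lost theirs in 9, 7 and 6. Of 6 Scm and MBT domain genes only 3 reached the expression minimum and none was called, with Scmh1 at 0.36 (SE 0.14, limma adjusted p = 0.0922) and L3mbtl3 at -0.33 (SE 0.33, limma adjusted p = 0.455) against OE normal lung.

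Ezh2 stood at 8.48, 23.5 and 22.6 FPKM in the tumors, 10.2 and 11.5 FPKM in OE normal lung and 3.72 and 2.58 FPKM in WT lung, so tumor 1 was below both OE normal lungs. Ezh2 was called higher in tumors than in WT lung (log2 difference 2.10, SE 0.43, limma adjusted p = 0.0118). Against OE normal lung it was not called (0.58, SE 0.43, limma adjusted p = 0.329). Its paralog Ezh1 stood at 14.1, 8.65 and 8.71 FPKM in the tumors, 18.1 and 18.5 FPKM in OE normal lung and 18.4 and 20.3 FPKM in WT lung. Ezh1 was called lower against OE normal lung (-0.78, SE 0.22, limma adjusted p = 0.0339) and WT lung (-0.86, SE 0.22, limma adjusted p = 0.0254). These calls were lost in 9 and 10 of 18 alternatives. Cdkn2a, a target that PRC1 with BMI1 or CBX7 is known to repress, stood at 34.3, 31.8 and 31.3 FPKM in the tumors and between 2.07 and 4.05 FPKM in the 4 normal lungs. Cdkn2b, of the same locus, stood at 14.9, 16.1 and 12.9 FPKM in the tumors, 13.0 and 6.62 FPKM in OE normal lung and 13.7 and 14.0 FPKM in WT lung. It was not called in either tumor comparison (log2 differences 0.59 and 0.07). Whether the levels of Ezh2, Ezh1, Cdkn2a or Cdkn2b go with those of the members was not tested.

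The genes whose profile over the 7 libraries was most like that of Pcgf2, by root mean square difference of centered log2 values, were Arhgef5 (0.060), Tom1l1 (0.065) and Scamp1 (0.070). For Cbx7 they were Isg20 (0.13), Syne2 (0.15) and Ier3 (0.15). These are descriptions over 7 libraries that share the 3 groups.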

How the data were processed

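RNA from 7 mouse lung samples was sequenced. The authors deposited 1 table of FPKM values by gene symbol for each library. TopHat2 or TopHat, Cufflinks 2.0.0 and mm9 are named in the submitters' processing notes. Annotation, normalization option, strandedness and depth were not given in the sources used here. Dates stood where symbols belong in 27 of 22474 rows, and these were dropped.

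No scaling was added before taking log2(FPKM + 1). Genes at 1 FPKM or more in 2 or more libraries (14057) entered a limma 3.58.1 fit (R 4.3.3) of 3 groups with a common spread and a trended eBayes prior. Tests were 2-sided with Benjamini-Hochberg adjustment over these genes. The procedure was tested on simulated data. The fit was repeated with a smaller pseudocount (0.1), without a filter or with one at 5 FPKM, with 4 other scalings (median-of-ratios, TPM, TPM less small RNA genes, quantile), untrended, on 2 groups at a time, with a replicate block, with a sex term, and leaving 1 library out. The members and lists were chosen with earlier results of these data known. Named genes were all members, Ezh2, up to 4 called non-overlapping genes per list with a higher mean of at least 5 FPKM (or the 2 largest differences where none was called) and the 3 genes most like 2 members. FPKM precision is limited by the 2 or 3 libraries per group. Promoter windows came from RefSeq (GRCm38.p6). Plots used matplotlib 3.10.9. 1 gene was left out of the list counts and family shares and is not reported here.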

Additional observations from a re-analysis of the deposited data

How the results depend on the processing

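The calls of Pcgf2 and Cbx7 against OE normal lung held in all 18 alternatives, and no called member changed sign in any. With the filter at 5 FPKM Cbx2, Cbx8, L3mbtl3 and Sfmbt1 gave no value. The median of all genes in tumors against OE normal lung was -0.11 on the values as given, 0.05 after median-of-ratios scaling, -0.33 as TPM, -0.25 as TPM without small RNA genes and 0.13 with quantile normalization. Median-of-ratios scaling called 6 members against OE normal lung and turned Cbx8 (0.041) and Phc2 (0.0040) there, and Cbx2 (-0.0012) and Cbx7 (-0.052) between the normal groups. Quantile normalization called 6 as well and turned Cbx8 (0.31) and L3mbtl3 (0.16) against OE normal lung, L3mbtl3 (0.074) against WT lung, and Cbx2 (-0.12), Cdkn2a (-0.076) and Sfmbt1 (-0.073) between the normal groups. TPM turned Cbx2 (-0.16 and -0.0047 in the tumor comparisons) and, between the normal groups, Ring1 (0.015), Phc1 (0.026), Cbx6 (0.060), Cbx3 (0.072), Ezh1 (0.055) and Cbx5 (0.022). TPM without small RNA genes turned Cbx2 (-0.095 and -0.052 in the tumor comparisons), Bmi1 (-0.028) and Ring1 (-0.018) against WT lung, and Cbx7 between the normal groups (-7.0e-04). A pseudocount of 0.1 turned Cbx2 against OE normal lung (-0.010). A sex term turned L3mbtl3 (0.045) and Cbx1 (0.12) against WT lung, and Cbx7 (-0.024), Ezh1 (0.10) and Cdkn2a (-0.018) between the normal groups. Between the normal groups 1 gene was called with a pseudocount of 0.1 and 1 with the sex term, 38 without a filter and 3 with only the groups compared. In none of these cases was the cause tested.

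With the replicate number as a block 3130 genes were called against OE normal lung, 2999 against WT lung and 1 between the normal groups, 1 member remained called against WT lung, and Cbx1 turned there (0.053). Pcgf2 and Cbx6 then gave limma adjusted p = 0.0595 and 0.123 against WT lung, and Cbx6 gave 0.0955 against OE normal lung. Same-numbered libraries correlated at -0.029 to 0.034 in their deviations. In a group of 2 libraries the deviations mirror each other, so this check cannot decide whether the numbers pair the samples. By the sex markers tumor 1 and OE normal 1 were male, tumor 2 and OE normal 2 were female, and both WT lungs were male.

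Leaving out 1 library gave 2996 to 9620 genes and 2 to 9 members against OE normal lung, 2445 to 9438 genes and 0 to 4 members against WT lung, and 0 to 290 genes between the normal groups. Cbx2 then ranged from -0.40 to 0.29 and Cbx8 from -0.35 to 0.052 against OE normal lung, and Cbx2 from -0.36 to 0.33 and Cbx1 from -0.42 to 0.053 against WT lung. Between the normal groups the ranges were -0.079 to 0.16 for Cbx2, -0.27 to 0.14 for Cbx6, -0.23 to 0.26 for Cbx7 and -0.25 to 0.41 for Cdkn2a. A group left with 1 library was assumed to vary like the others.

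Within Bmi1 and Pcgf2 alone, the shares in tumors, OE normal and WT lung were 48.2%, 62.0% and 63.1% for Bmi1 and 51.8%, 38.0% and 36.9% for Pcgf2, while Phc2, alone in its family, was at 100% in every group.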

Other observations

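Of 11 genes tested for deubiquitination of histone H2A, which removes the mark that PRC1 places, 3 were higher and none lower in tumors than in OE normal lung, and 3 were higher and none lower than in WT lung. Over all genes 38.1% and 38.2% were called, 13.1% and 15.0% higher and 24.9% and 23.2% lower. The share of calls in this list was thus below that of all genes, while the share called higher was above it. With 3 calls among 11 genes both differences rest on few genes and were not tested. Asxl1, the cofactor of the deubiquitinase BAP1, stood at 21.0, 29.7 and 28.2 FPKM in the tumors, 14.6 and 12.1 FPKM in OE normal lung and 13.3 and 12.3 FPKM in WT lung (limma adjusted p = 0.00979 and 0.00811). The H2A deubiquitinase Mysm1 stood at 11.1 ± 1.32 FPKM in tumors (SD, n = 3) and at 7.08 ± 0.0209 and 6.26 ± 0.240 FPKM in OE normal and WT lung (SD, n = 2 each, limma adjusted p = 0.0199 and 0.00869). Mbd6 rose against OE normal lung (log2 difference 0.61, SE 0.16) and Asxl2 against WT lung (0.89, SE 0.26). Of 18 alternatives the call was lost in 10 for Mbd6, in 12 for Asxl2, and in 9 for Mysm1 against OE normal lung.

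The HP1 chromobox genes, which are not part of PRC1, gave 1 call among 3 against OE normal lung and none against WT lung. Of all genes 38.1% and 38.2% were called in these comparisons. Cbx3 rose against OE normal lung, at 69.0 ± 11.6 FPKM in tumors (SD, n = 3) and 46.2 ± 0.468 FPKM (SD, n = 2, limma adjusted p = 0.0382), and was not called against WT lung (limma adjusted p = 0.0545). The call against OE normal lung was lost in 11 of 18 alternatives.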
